A study of Mus musculus with 24 samples.

Results

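Lgr5, Lgr6, Procr, Tspan8, Bcl11b and Sox9 are genes that have been used to mark stem cells of the mouse mammary gland, and their levels were followed across sorted mammary epithelium. They were taken by symbol, and all 6 of 6 matched a row of the table of 24007 genes. The libraries came from germline Id4 knockout (KO) females and from wild-type (WT) females of the inbred FVB/N strain, all aged 10 to 12 weeks and in estrus. For each replicate the glands of 4 to 8 mice were pooled, dissociated and sorted as live cells without lineage markers. The basal fraction was CD24+CD29hiCD61+, the luminal progenitor (LP) fraction CD24+CD29loCD61+ and the mature luminal (ML) fraction CD24+CD29loCD61-. This gave 6 groups, KO basal, WT basal, KO LP, WT LP, KO ML and WT ML, with 4 libraries each. The knockout is germline and so not limited to the epithelium, and the sources used here do not say which part of Id4 is missing. Inputs of 0.5 to 2 ng of RNA were amplified with NuGEN Ovation reagents before sequencing.

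The mammary epithelium has an outer basal layer, which contains contractile myoepithelial cells and most of the cells that rebuild a gland on transplantation, and an inner luminal layer of progenitors and hormone-sensing cells. LGR5 and LGR6 are receptors for R-spondins, which raise the response of a cell to Wnt by keeping Frizzled receptors at its surface. PROCR, the endothelial protein C receptor, and TSPAN8, a tetraspanin, are surface proteins, while BCL11B, a zinc finger protein, and SOX9, an HMG box protein, are transcription factors. Each has been reported to mark or maintain a mammary stem or progenitor cell in mice, and the reports do not point to the same cells. ID4 lacks a DNA-binding domain and holds back E proteins, which bind DNA at E-boxes.

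Levels are given in CPM, for which the counts of all 24 libraries were put on 1 library size by the TMM method. Library totals ran from 3098425 to 7246443 counts, so that 3 counts stood for 0.382 to 0.966 CPM, and limits from counts cover counting error only because the amplified molecules carry no identifiers. In basal replicates 1 to 4 Id4 itself held 10.25, 1.12, 10.95 and 0.931 CPM in KO cells and 86.2, 13.3, 28.8 and 38.7 CPM in WT cells, so that the groups did not overlap but KO replicates 1 and 3 lay close to WT replicate 2. Id4 reached at most 7 counts in any luminal library. The sorted populations carried their markers. The summed level of 10 basal markers was 7782 to 14395 CPM in the 8 basal libraries and at most 219.8 CPM in a luminal one, 10 LP markers summed to at least 9222 CPM in LP libraries, and 10 ML markers summed to at least 5271 CPM in ML libraries. The LP list includes Itgb3, the gene of CD61, which was used in the sort. In LP libraries the ML markers summed to 938.9 to 1946 CPM in KO and 547.8 to 890.6 CPM in WT cells, without overlap. The source of that difference was not tested. A pair of basal libraries stood apart on such sums. KO basal replicate 3 held 217.7 CPM of 10 endothelial markers, against 17.7 to 70.2 CPM in the other basal libraries, and WT basal replicate 2 held 7533 CPM of LP markers, against 405.8 to 1960 CPM in the others.

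The 6 genes fell into different patterns across the sorted populations. Lgr5 and Bcl11b were basal transcripts with little in either luminal fraction, Lgr6 was highest in basal cells and intermediate in LP cells, Tspan8 was highest in LP cells, and Sox9 was lowest in basal cells and highest in ML cells. Procr varied widely between replicates (coefficient of variation 43.6% to 104% over the 6 groups), as did Bcl11b (60.2% to 168%). Basal and LP libraries overlapped for Procr in both genotypes, for Tspan8 in KO cells and for Sox9 in WT cells. A gene was called when edgeR's quasi-likelihood test, adjusted by Benjamini and Hochberg over all tested genes, gave p under 0.05. In KO cells 3 of the 6 genes were higher and 0 lower in basal than in LP cells, where 8.12% of all tested genes were higher and 6.69% lower. Between KO basal and KO ML cells 4 were higher and 1 lower (11.9% and 7.51% of all genes), and between KO LP and KO ML cells 2 were higher and 1 lower (4.08% and 1.59%). In WT cells 3 were higher and 1 lower in basal than in LP cells (9.12% and 6.68% of all genes). Between WT basal and WT ML cells 4 were higher and 1 lower (14% and 10.6%), and between WT LP and WT ML cells 2 were higher and 0 lower (6.62% and 4.89%). In such sorted bulk samples, fewer cells of a type and less RNA per cell cannot be told apart.

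**Figure D1:**
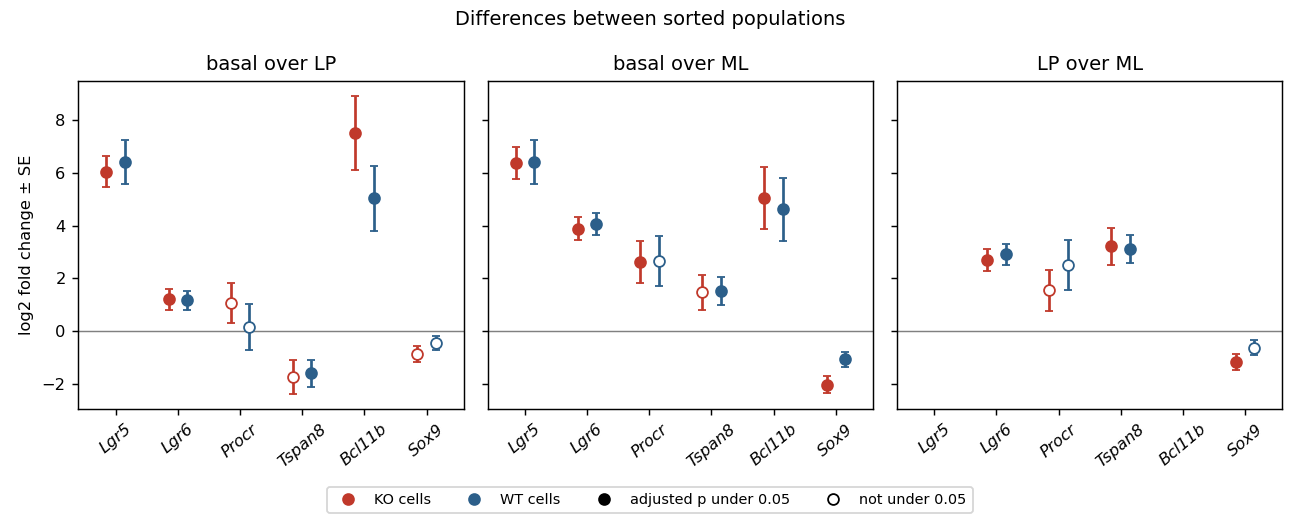
Log2 fold changes between sorted populations (y axis, ± SE from edgeR) of the 6 genes, in KO cells (red) and WT cells (blue), with filled points for an adjusted p under 0.05. Lgr5 and Bcl11b lie above 4 over both luminal populations, Sox9 lies below 0 throughout, and Lgr5 and Bcl11b have no point in the LP over ML panel because both means were under 5 CPM.

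Lgr5 (ENSMUSG00000020140) occupies chromosome 10 (mm10, minus strand) between 115450311 and 115587780. Its level in KO basal replicates 1 to 4 was 260.3, 184, 137 and 119.6 CPM, and in WT basal replicates 1 to 4 it was 141, 69.9, 120.0 and 90.7 CPM. LP libraries held 2.50, 2.41, 1.42 and 4.55 CPM in KO cells and 2.55, 1.25, 0.234 and 0.631 CPM in WT cells. ML libraries held 0.689, 1.22, 5.45 and 1.61 CPM in KO cells and 0.26, 0, 4.14 and 0.877 CPM in WT cells. Every basal library stood far above every luminal library. KO cells gave log2 fold changes of 6.06 (SE 0.59, edgeR adjusted p = 3.18e-06) for basal over LP and 6.38 (SE 0.60, adjusted p = 1.79e-06) for basal over ML. The corresponding values in WT cells were 6.43 (SE 0.83, adjusted p = 6.02e-05) and 6.42 (SE 0.84, adjusted p = 4.04e-05). The luminal side rests on few counts, a total of 59 in KO LP, 32 in WT LP, 51 in KO ML and 29 in WT ML cells. As a share of the basal mean, Lgr5 was 1.55% in KO LP and 1.28% in KO ML cells, against 1.11% in WT LP and 1.25% in WT ML cells. The summed basal markers gave 0.698% and 0.898% for the LP and ML fractions of KO cells and 1.31% and 1.37% for those of WT cells, and whether the luminal Lgr5 counts came from sorted-in basal cells was not tested. The ML values rest most on replicate 3: without it the basal over ML value was 7.29 in KO cells and 8.03 in WT cells. Without WT LP replicate 1, the highest WT LP library, the basal over LP value in WT cells was 7.15. A930009A15Rik overlaps Lgr5 on the other strand and had 0 to 11 counts per library. Since the sources used here do not say that the counting used strand, its reads could stand in the Lgr5 counts.

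**Figure D2:**
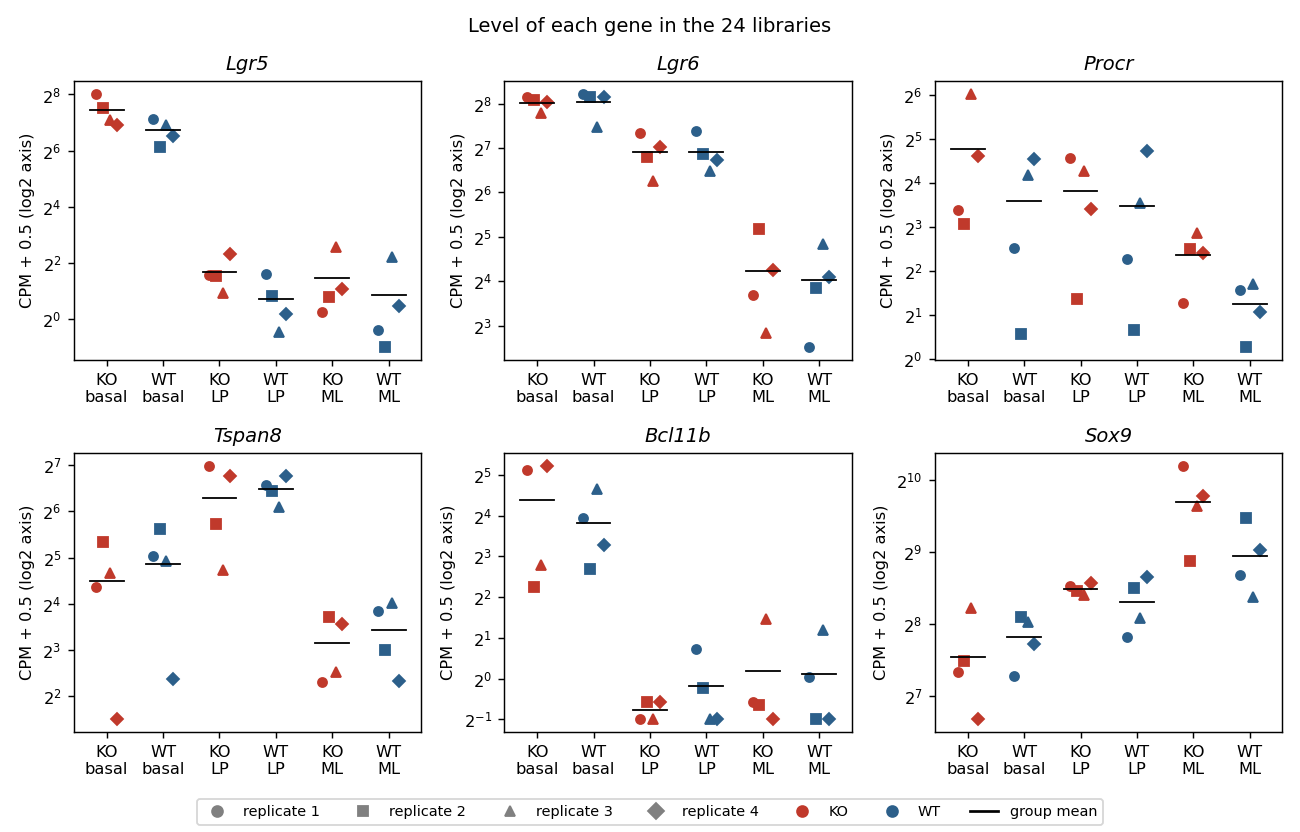
Level of each gene (y axis, CPM + 0.5 on a log2 axis) in the 24 libraries by group, KO in red and WT in blue, with 1 symbol per replicate number and a line at the group mean. Basal libraries of Lgr5 lie between 69.9 and 260.3 CPM, above all its luminal libraries, while libraries of Procr spread widely within each group.

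Lgr6 (ENSMUSG00000042793), the other R-spondin receptor of the set, occupies chromosome 1 (mm10, minus strand) between 134983301 and 135105276. Basal libraries held 285, 269, 219.6 and 262 CPM in KO cells and 298, 283, 176 and 286 CPM in WT cells. LP libraries held 160.2, 111, 75.5 and 129.7 CPM in KO cells and 166, 116, 88.8 and 105 CPM in WT cells. ML libraries held 12.4, 35.9, 6.58 and 18.6 CPM in KO cells and 5.20, 13.8, 28.0 and 16.7 CPM in WT cells. The 3 populations did not overlap in either genotype, with every basal library above every LP library and every LP library above every ML library. Basal over ML came to a log2 fold change of 3.89 (SE 0.43, edgeR adjusted p = 7.90e-06) in KO cells and 4.08 (SE 0.41, adjusted p = 4.28e-06) in WT cells. LP over ML came to 2.69 (SE 0.41, adjusted p = 9.96e-04) in KO cells and 2.91 (SE 0.39, adjusted p = 1.64e-04) in WT cells. Within replicates 1 and 2 alone the KO call of LP over ML was lost (2.46, adjusted p = 0.120). The step from LP to basal cells was smaller, 1.20 (SE 0.39, adjusted p = 0.0458) in KO cells and 1.16 (SE 0.36, adjusted p = 0.0399) in WT cells. LP cells held 46.0% of the basal mean of Lgr6 in KO mice and 45.6% in WT mice, against 0.698% and 1.31% of the summed basal markers in the same libraries. The basal over LP call is the less stable one. In KO cells it was lost without basal replicate 1, 2, 3 or 4, LP replicate 2, 3 or 4, or ML replicate 4 (adjusted p = 0.0548 to 0.145), and in WT cells without basal replicate 1, 2 or 4, LP replicate 2, 3 or 4, or ML replicate 2 or 4 (0.0509 to 0.112). The WT call was also lost with the replicate number as a block (adjusted p = 0.0555). Without KO ML replicate 2, its highest ML library, basal over ML in KO cells was 4.48.

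Tspan8 (ENSMUSG00000034127) is the nearest protein-coding neighbour of Lgr5 on that side, between 115816832 and 115849893 of chromosome 10 (mm10, plus strand), 229051 bases away with 0 protein-coding genes between them. The 2 neighbours had different patterns. Basal libraries held 20.2, 40.2, 24.8 and 2.33 CPM of Tspan8 in KO cells and 32.2, 48.5, 29.7 and 4.69 CPM in WT cells. LP libraries held 126, 52.7, 26.0 and 107.6 CPM in KO cells and 94.0, 86.4, 68.2 and 107.7 CPM in WT cells. ML libraries held 4.48, 12.6, 5.27 and 11.3 CPM in KO cells and 13.8, 7.53, 15.6 and 4.53 CPM in WT cells. LP libraries were above all ML libraries in both genotypes, and replicate 4 was the lowest basal library in both. The LP over ML log2 fold change was 3.21 (SE 0.69, edgeR adjusted p = 0.00985) in KO cells and 3.11 (SE 0.55, adjusted p = 0.00135) in WT cells. Its KO call was lost within replicates 1 and 2 (3.35, adjusted p = 0.123) and within replicates 3 and 4 (3.03, adjusted p = 0.359). Basal over LP was -1.74 (SE 0.65, adjusted p = 0.0871) in KO cells, where the groups overlapped, and -1.60 (SE 0.52, adjusted p = 0.0453) in WT cells, where they did not. In KO cells it passed without basal replicate 2 (-2.27, adjusted p = 0.0396) or LP replicate 3 (-2.09, adjusted p = 0.0487) and with limma voom and sample weights (-2.17, adjusted p = 0.0288). In WT cells it was lost without basal replicate 1 or 3, LP replicate 1, 2, 3 or 4, or ML replicate 2 (adjusted p = 0.0509 to 0.0975), and with RLE size factors (0.0555). Basal over ML was 1.47 (SE 0.66, adjusted p = 0.135) in KO cells and 1.51 (SE 0.52, adjusted p = 0.0456) in WT cells, and the libraries overlapped in both. In KO cells it passed without basal replicate 4 (1.80, adjusted p = 0.0292), and in WT cells it was lost without any single library other than basal replicate 4 or ML replicate 3 (adjusted p = 0.0528 to 0.135), with the block (0.0589), with no expression filter (0.0586) and with limma voom and sample weights (0.85, adjusted p = 0.318). Basal Tspan8 moved with LP markers in part: KO basal replicate 2 and WT basal replicate 2 had the highest sums of LP markers in their groups, 1960 and 7533 CPM, and the highest Tspan8, 40.2 and 48.5 CPM. The other 6 basal libraries did not follow that sum: KO basal replicate 4 had the second highest LP sum of its group, 684 CPM, and the lowest Tspan8, 2.33 CPM, and WT basal replicate 4 had 671 CPM of LP markers and 4.69 CPM of Tspan8, against 462 and 32.2 CPM in WT basal replicate 1. The part of sorted-in LP cells in the basal values was not tested. An antisense gene, 4930422I22Rik, overlaps Tspan8 and was not analysed here. Its reads could likewise stand in the Tspan8 counts.

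**Figure D3:**
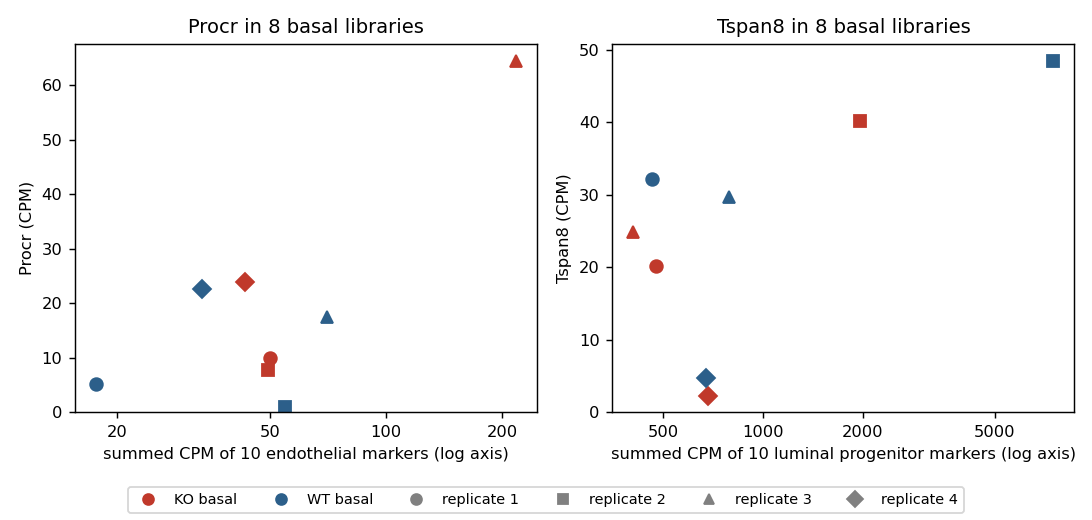
Procr against the summed level of 10 endothelial markers (left) and Tspan8 against that of 10 luminal progenitor markers (right), both in CPM with a log x axis, in the 4 KO basal (red) and 4 WT basal (blue) libraries. KO basal replicate 3 is highest for Procr and for endothelial markers, and WT basal replicate 2 is highest for Tspan8 and for LP markers.

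The promoters of Lgr6 and Tspan8 are shown because both had higher levels in LP cells than ML cells while in WT cells Lgr6 was higher and Tspan8 lower in basal than in LP cells, and because the E proteins held back by ID4 bind E-boxes. Each is the 250 bases before the RefSeq start on GRCm38.p6, written in the direction of the gene, with E-boxes (letters CANNTG, which read the same on both strands) in capitals. RefSeq promoters were at hand for 4 of the 6 genes: Lgr6, Procr, Tspan8 and Bcl11b. RefSeq and GENCODE starts can differ. The Tspan8 window lies wholly inside the GENCODE gene, which begins at 115816832, so that bases before that start were not searched. The Procr and Bcl11b windows run partly into their GENCODE genes, and the Lgr6 window lies outside its gene.
Lgr6 promoter, chr1:135105277-135105526, minus strand: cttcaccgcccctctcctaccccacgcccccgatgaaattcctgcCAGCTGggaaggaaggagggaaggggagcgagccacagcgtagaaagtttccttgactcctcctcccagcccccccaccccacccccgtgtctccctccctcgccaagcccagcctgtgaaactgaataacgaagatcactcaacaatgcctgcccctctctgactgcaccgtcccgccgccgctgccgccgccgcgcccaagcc
Tspan8 promoter, chr10:115817034-115817283, plus strand: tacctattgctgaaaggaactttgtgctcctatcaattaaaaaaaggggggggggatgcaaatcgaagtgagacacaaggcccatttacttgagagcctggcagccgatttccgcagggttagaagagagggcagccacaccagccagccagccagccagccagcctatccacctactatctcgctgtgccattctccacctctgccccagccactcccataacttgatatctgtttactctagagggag
The Lgr6 window holds 1 E-box, CAGCTG, at position -205 from the start, and the Tspan8 window holds 0. The Procr window also holds 1, with the same letters, and the Bcl11b window 0. Of 32841 mouse promoter windows of this length, 66.2% hold at least 1 E-box. The letters CTTTGA, a core of the sites of the Wnt effectors of the TCF family (either strand), occur 1 time in the Bcl11b window and 0 times in the others, and in 13.8% of all windows. Such matches describe letters and do not show binding.

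Procr (ENSMUSG00000027611) occupies chromosome 2 (mm10, plus strand) between 155751117 and 155755471. Basal libraries held 9.92, 7.82, 64.4 and 23.96 CPM in KO cells and 5.22, 0.993, 17.5 and 22.7 CPM in WT cells. LP libraries held 23.1, 2.07, 18.7 and 10.2 CPM in KO cells and 4.33, 1.08, 11.2 and 25.9 CPM in WT cells. ML libraries held 1.90, 5.13, 6.77 and 4.84 CPM in KO cells and 2.47, 0.700, 2.76 and 1.61 CPM in WT cells. Basal and LP libraries overlapped widely in both genotypes. The coefficient of variation was 43.6% to 104% over the 6 groups, and replicates 1 and 2 were both below replicates 3 and 4 in KO basal, WT basal and WT LP cells. Basal over LP was 1.07 on the log2 scale (SE 0.76, edgeR adjusted p = 0.402) in KO cells and 0.15 (SE 0.89, adjusted p = 0.940) in WT cells, and the KO value was 0.06 without KO basal replicate 3 and 0.06 to 1.49 over all single libraries left out. Basal over ML was 2.61 (SE 0.80, adjusted p = 0.0299) in KO cells, with all libraries separated, and 2.66 (SE 0.96, adjusted p = 0.0550) in WT cells, with overlap. The KO call was lost without basal replicate 3 (1.60, adjusted p = 0.136) or ML replicate 1, 2 or 4 (0.0600 to 0.0856), with the block (2.13, adjusted p = 0.0617) and with limma voom and sample weights (1.48, adjusted p = 0.150). The WT value passed without basal replicate 1 or 2 or LP replicate 2 (2.70 to 3.03, adjusted p = 0.0122 to 0.0467) with the block (2.01, adjusted p = 0.0449), and with no filter, voom or DESeq2 (2.60 to 2.82, adjusted p = 0.0129 to 0.0458), so that the calls of both genotypes in this comparison depend on single libraries and on the test. LP over ML was 1.54 (SE 0.78, adjusted p = 0.364) in KO cells and 2.51 (SE 0.96, adjusted p = 0.110) in WT cells, and the WT value passed without WT basal replicate 2 (2.50, adjusted p = 0.0419) and with DESeq2 (2.53, adjusted p = 0.0388). Leaving out single libraries gave 1.57 to 2.89 for it (adjusted p = 0.0419 to 0.432), with the lowest value without WT LP replicate 4. Procr is an endothelial gene as well, and KO basal replicate 3, with the highest Procr of all libraries, had the highest sum of endothelial markers, 217.7 CPM. The other 7 basal libraries did not follow that sum: WT basal replicate 4 had 22.7 CPM of Procr with 33.4 CPM of endothelial markers, and WT basal replicate 2 had 0.993 CPM with 54.6 CPM. All 10 endothelial markers had counts in at least 1 basal library of each genotype. The part of endothelial cells in the Procr values was not tested.

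Bcl11b (ENSMUSG00000048251) occupies chromosome 12 (mm10, minus strand) between 107910403 and 108003602. Basal libraries held 34.3, 4.28, 6.44 and 36.8 CPM in KO cells and 14.8, 5.96, 24.8 and 9.23 CPM in WT cells. KO LP cells gave a total of 2 counts over 4 libraries, against 11 in WT LP cells, and ML cells gave 14 in KO and 13 in WT mice. The KO basal libraries fell into a high pair, replicates 1 and 4, and a low pair, replicates 2 and 3, and no luminal library reached the lowest basal one. For KO basal over KO LP the ratio of pooled counts, each divided by the pooled library size, was 229 (95% counting interval 62.9 to 1893), and edgeR's own test of that contrast gave an adjusted p of 0.00142. KO basal over KO ML came to a log2 fold change of 5.06 (SE 1.19, adjusted p = 0.00585). In WT cells basal over LP was 5.04 (SE 1.23, adjusted p = 0.00981) and basal over ML 4.63 (SE 1.20, adjusted p = 0.0100). These sizes hang on a few luminal counts. Without KO ML replicate 3 only 2 counts were left in KO ML cells, and the ratio of pooled counts for basal over ML was 205 (95% counting interval 56.4 to 1698). Without WT LP replicate 1, 2 counts were left in WT LP cells, and the ratio for basal over LP was 103 (28.2 to 855). Without WT ML replicate 3 the log2 fold change of basal over ML was 6.08 in WT cells, and the calls passed in each of these. Fits within pairs of replicates lost part of the calls: replicates 3 and 4 alone gave adjusted p = 0.0843 over LP and 0.161 over ML in KO cells, and replicates 1 and 2 alone gave 0.235 (log2 fold change 3.75) over LP and 0.105 (5.13) over ML in WT cells, while the other pair passed for each. Bcl11b is also a T cell gene. The T cell list, 8 of whose 10 genes matched the table, summed to 0.558 to 14.2 CPM in KO basal libraries and 1.13 to 45.7 CPM in WT basal libraries, with Cd3d and Cd2 at 0 in all 8. KO basal replicate 4 had the highest T cell sum of its group and its highest Bcl11b, 36.8 CPM, while WT basal replicate 2 had the highest sum of all and the lowest WT basal Bcl11b, 5.96 CPM. Those sums came from few genes: of the 8 matched genes 2 were detected in KO basal replicate 4 and 1 in WT basal replicate 2. The part of T cells in the Bcl11b values was not tested.

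Sox9 (ENSMUSG00000000567) occupies chromosome 11 (mm10, plus strand) between 112782224 and 112787760 and ran in the opposite direction to Lgr5. Basal libraries held 161, 179.6, 298 and 102 CPM in KO cells and 156, 272, 259.8 and 211 CPM in WT cells. LP libraries held 368, 349, 338 and 380.3 CPM in KO cells and 226, 362, 271 and 401 CPM in WT cells. ML libraries held 1169, 467, 797 and 878 CPM in KO cells and 409, 706, 332 and 518 CPM in WT cells. In KO cells the 3 populations were separated, basal below LP and LP below ML, and in WT cells LP overlapped with both others. Basal over ML was -2.05 on the log2 scale (SE 0.32, edgeR adjusted p = 2.26e-04) in KO cells and -1.08 (SE 0.27, adjusted p = 0.00818) in WT cells. The WT call was lost within replicates 1 and 2 (-1.37, adjusted p = 0.118) and within replicates 3 and 4 (-0.82, adjusted p = 0.0533). LP over ML was -1.18 (SE 0.31, adjusted p = 0.0346) in KO cells and -0.63 (SE 0.27, adjusted p = 0.161) in WT cells. The KO call was lost without any 1 of the LP libraries or without ML replicate 1, 3 or 4 (-1.21 to -1.0, adjusted p = 0.0682 to 0.144). Basal over LP was -0.87 (SE 0.31, adjusted p = 0.0754) in KO cells and -0.45 (SE 0.27, adjusted p = 0.300) in WT cells, and the KO value passed without KO basal replicate 3 (-1.26, adjusted p = 0.00714), with the block (-0.92, adjusted p = 0.0473), with no filter (-0.88, adjusted p = 0.0434) and with voom (-1.12, adjusted p = 0.0178). With voom the LP over ML value of WT cells passed as well (-0.61, adjusted p = 0.0404).

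Levels of different genes were compared per kilobase of the deposited gene length. In KO basal cells Lgr5 stood at 47.2 ± 16.9, Sox9 at 44.8 ± 19.9 and Lgr6 at 38.8 ± 4.17 CPM per kb (SD, n = 4), and in WT basal cells the same genes stood at 28.3 ± 8.41, 54.4 ± 12.8 and 39.1 ± 8.51 CPM per kb. Which of the 3 was highest changed between libraries: in KO basal cells Lgr5 led in 2, Lgr6 in 1 and Sox9 in 1, while in WT basal cells Sox9 led in 3 and Lgr6 in 1. Procr in basal cells stood at 16.6 ± 16.4 (KO) and 7.26 ± 6.37 CPM per kb (WT), Tspan8 at 15.6 ± 11.1 and 20.5 ± 12.9, and Bcl11b at 2.52 ± 2.15 and 1.69 ± 1.02. In LP cells Sox9 and Tspan8 led, Sox9 with 86.8 ± 4.57 in KO and 76.2 ± 19.5 CPM per kb in WT cells and Tspan8 with 55.6 ± 33.3 in KO and 63.3 ± 11.7 CPM per kb in WT cells. Sox9 led in 3 of 4 LP libraries of each genotype and Tspan8 in the other one. In ML cells Sox9 led in all 4 libraries of each genotype, with 200.2 ± 69.8 CPM per kb in KO and 119 ± 39.2 CPM per kb in WT cells, and each of the other genes averaged at most 5.97 in KO and 7.37 CPM per kb in WT cells.

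**Figure D4:**
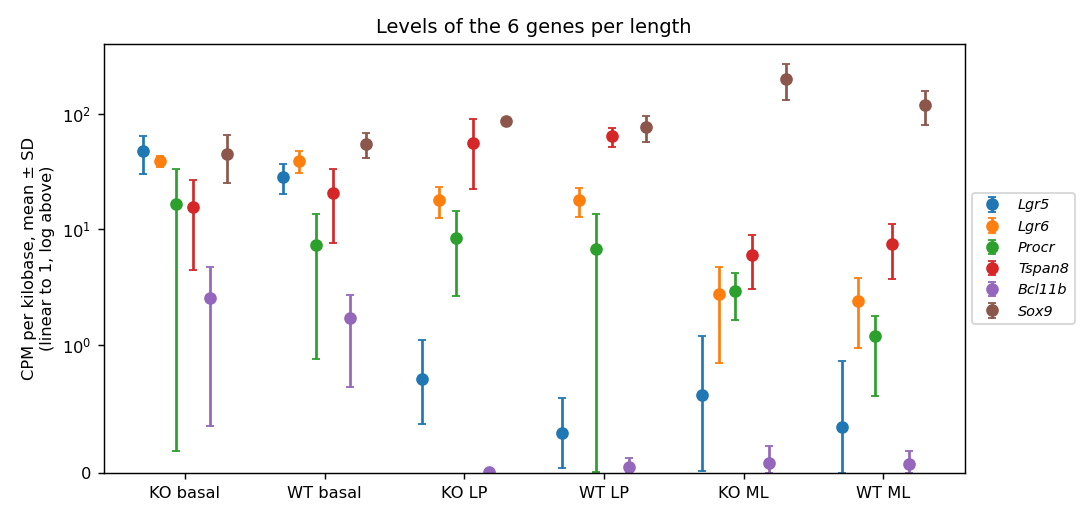
Mean level per gene length (y axis, CPM per kilobase, linear below 1 and logarithmic above, ± SD, n = 4 libraries) of the 6 genes in each group. Basal cells show Lgr5, Lgr6 and Sox9 at means of 28.3 to 54.4, LP cells show Sox9 and Tspan8 on top, and in ML cells Sox9 stands alone, at 200.2 in KO and 119 in WT cells.

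Within each population KO was compared with WT. No member passed: 0 of 6 tested in basal cells, 0 of 5 in LP cells and 0 of 4 in ML cells, where 0%, 0% and 0.00851% of all tested genes were called by edgeR. With 0 genes called in basal cells, Id4 itself was not called there either, at 5.81 ± 5.54 CPM (KO) and 41.8 ± 31.4 CPM (WT). Luminal cells had little Id4 to lose, with means of 0.359 CPM in WT LP and 0.702 CPM in WT ML cells. The number of all genes with an unadjusted p under 0.05 was 383 (3.39%) in basal, 439 (3.75%) in LP and 455 (3.87%) in ML cells, and DESeq2 called 21, 4 and 11 genes, with 0 members among them. The libraries of KO and WT overlapped for all 6 genes in all 3 populations, while they were separated for 2.61% of all tested genes in basal, 2.61% in LP and 2.75% in ML cells. Lgr5 averaged 175 ± 62.9 CPM (KO) and 105 ± 31.2 CPM (WT) in basal cells (SD, n = 4 each), a log2 fold change of 0.75 (95% interval 0.06 to 1.44, unadjusted p = 0.0349, edgeR adjusted p = 0.998). Its 2 highest libraries were KO replicates 1 and 2, and replicates 1 and 2 alone gave 1.09, while replicates 3 and 4 alone gave 0.34. Sox9 averaged 828 ± 289 CPM in KO ML cells and 491 ± 162 CPM in WT ML cells, a log2 fold change of 0.77 (95% interval 0.15 to 1.39, unadjusted p = 0.0193, adjusted p = 0.998), with 3 of 4 KO libraries above every WT library and KO replicate 2 below 2 of them. Leaving out single libraries gave 0.54 to 0.89 for Lgr5 in basal cells and 0.56 to 0.99 for Sox9 in ML cells. The lowest Lgr5 value, without KO basal replicate 1, had an SE of 0.35. In the fit of all 24 libraries Lgr5 in basal cells was 0.73 (SE 0.60) and Sox9 in ML cells 0.76 (SE 0.29).

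The intervals of the other genes show what the data could have missed. Lgr6 was close to even, at 0.01 (95% interval -0.54 to 0.56) in basal, -0.01 (-0.56 to 0.54) in LP and 0.24 (-0.95 to 1.42) in ML cells. Sox9 was -0.25 (-1.0 to 0.49) in basal and 0.18 (-0.29 to 0.64) in LP cells. Tspan8 was -0.39 (-2.06 to 1.29) in basal, -0.21 (-1.03 to 0.61) in LP and -0.28 (-1.29 to 0.73) in ML cells, and Bcl11b was 0.57 (-1.15 to 2.29) in basal cells. Procr was 1.27 (-0.68 to 3.21) in basal and 0.31 (-1.46 to 2.08) in LP cells. In basal cells the Procr value was 0.27 without KO basal replicate 3 and -0.11 without that library and WT basal replicate 2. It was 1.53 (SE 1.43) within replicates 1 and 2, which leave out KO basal replicate 3 as well. Within replicates 3 and 4 it was 1.22 (SE 0.78). In ML cells Procr averaged 4.66 ± 2.03 CPM (KO) and 1.89 ± 0.930 CPM (WT) (unadjusted p = 0.0421, adjusted p = 0.998), both under the 5 CPM set for a fold. Lgr5 in LP cells, at 2.72 ± 1.32 CPM (KO) and 1.17 ± 1.01 CPM (WT), was under it too (unadjusted p = 0.150). Genes outside the expression filter had a two-sided exact permutation test, whose smallest possible p was 0.0286. On log2(CPM + 0.5) it gave p = 0.343 for Lgr5 in ML cells, at 2.24 ± 2.17 CPM (KO) and 1.32 ± 1.92 CPM (WT), and an exact p of 0.543 for Bcl11b in LP cells and of 1 in ML cells. Replicate numbers were taken to pair KO with WT libraries in the luminal populations, and Lgr5 was higher in the KO library in 4 of 4 ML pairs. Exact sign flips within pairs gave p = 0.125 for it, the smallest p that 4 pairs allow, and for Bcl11b they gave an exact p of 0.75 in LP and of 1 in ML cells.

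**Figure D5:**
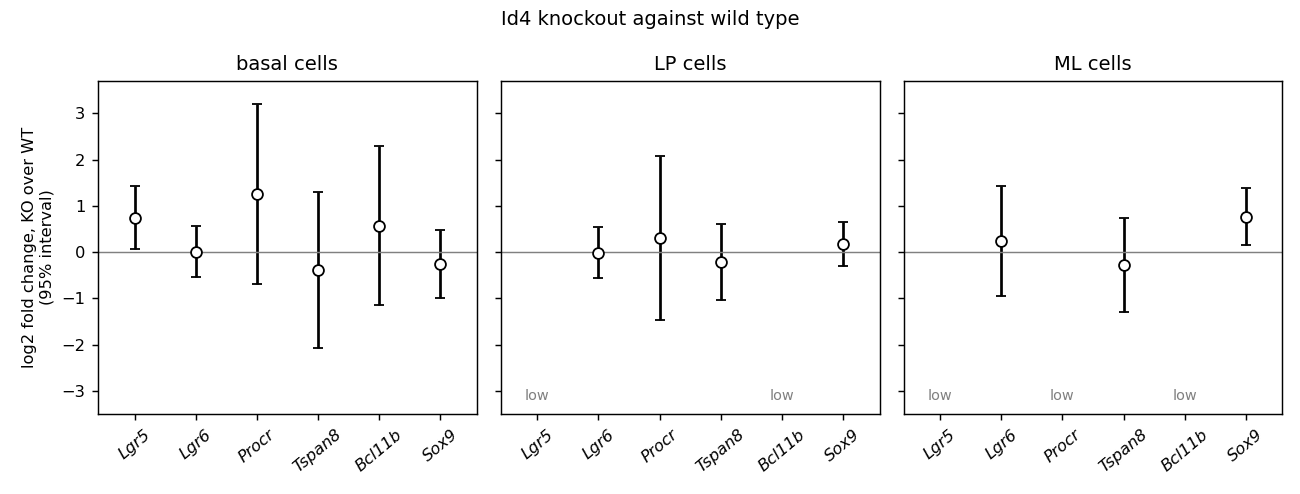
Log2 fold change of KO over WT (y axis, with the 95% interval from edgeR, n = 4 libraries each) of the 6 genes in basal, LP and ML cells; "low" marks genes outside the filter or with both means under 5 CPM. No gene passed the adjusted threshold. The intervals of Lgr5 in basal cells (0.06 to 1.44) and Sox9 in ML cells (0.15 to 1.39) lie above 0 but are not adjusted for the number of genes.

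Whether the KO effect differed from population to population was tested with all 24 libraries in 1 fit. In each of the 3 pairs of populations 0 of 6 genes and 0% of all 14082 tested genes passed with edgeR, while 6.96% (basal minus LP), 6.89% (basal minus ML) and 1.32% (LP minus ML) had an unadjusted p under 0.05. DESeq2 called 44, 42 and 1 genes, with 0 members among them. The only member with an unadjusted p under 0.05 was Sox9, whose KO effect in basal cells minus that in ML cells was -1.04 (SE 0.41, unadjusted p = 0.0176, edgeR adjusted p = 0.627). The same difference was -0.46 (SE 0.41, edgeR adjusted p = 0.909) for basal minus LP cells and -0.58 (SE 0.41, edgeR adjusted p = 1.00) for LP minus ML cells.

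Set against each other on centred mean log2(CPM + 0.5) over the 6 groups, the closest pairs of members were Lgr6 with Procr, which differed by a root mean square of 1.05, and Lgr5 with Bcl11b, by 1.11. The most distant were Lgr5 and Sox9, by 3.51, followed by Lgr5 and its neighbour Tspan8, by 3.38. Among 11769 genes, the pattern nearest to Lgr5 was that of Tgfb1i1, a focal adhesion scaffold (0.234), then Colgalt2, a collagen galactosyltransferase (0.248), and Vwa1, an extracellular matrix protein (0.271). Lgr6 was nearest to Akap2, a kinase anchoring protein (0.0772), March3 (0.154) and Enpp1, an ectonucleotidase (0.179). Akap2 averaged 578 CPM in KO basal, 496 in WT basal, 228 in KO LP, 194.5 in WT LP, 33.9 in KO ML and 27.1 in WT ML cells. For Procr the nearest were Rnf39 (0.162), Tmem154 (0.26) and Ank (0.273), and for Tspan8 they were Prkaa2, a catalytic subunit of AMP-activated kinase (0.121), Ptges, a prostaglandin E synthase (0.212), and Fam46a (0.223). Ptges averaged 143 CPM in KO LP and 152 CPM in WT LP cells, above its means in the other groups. For Bcl11b they were Serpina3i, a serpin (0.0803), Xkr4 (0.149) and Pknox2, a homeobox gene (0.193), and for Sox9 they were RP24-555M20.3 (0.106), Tpra1 (0.15) and 5031434C07Rik (0.155). Only Tgfb1i1 and Enpp1 were still among the 3 nearest when likeness was taken over the 24 libraries.

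Among genes that work with the R-spondin receptors, more were higher than lower in basal cells, and a pair of Wnt ligands was lower in WT basal than in WT ML cells. Of 34 genes of the R-spondin and Wnt pathway, 26 were tested in KO cells and 27 in WT cells, on a list written with results of these data known. In KO cells 10 were higher and 2 lower in basal than in LP cells (median log2 fold change 1.71, against -0.01 over all genes), and 14 were higher and 3 lower in basal than in ML cells (median 2.10, against 0.02), where 14.8% and 19.4% of all tested genes were called in either direction. In WT cells 10 were higher and 1 lower in WT basal than in WT LP cells, with a median of 1.16 against -0.03 over all genes, and 12 were higher and 4 lower in WT basal than in WT ML cells (median 1.37, against 0.01), where 15.8% and 24.6% of all tested genes were called. Lgr4, the third R-spondin receptor, averaged 126 ± 48.5 CPM in WT basal, 18.9 ± 2.69 in WT LP and 15.6 ± 4.88 in WT ML cells. Its log2 fold changes were 2.76 (SE 0.32, edgeR adjusted p = 2.01e-05) for basal over LP and 3.05 (SE 0.32, adjusted p = 6.19e-06) for basal over ML, so that all 3 receptors were higher in WT basal cells. Wif1, a secreted Wnt inhibitor, averaged 74.4 ± 33.1 CPM in WT basal, 0.384 ± 0.336 in WT LP and 0.597 ± 0.444 in WT ML cells (adjusted p = 6.77e-06 and 6.37e-06). On the other side, the Wnt ligands Wnt4 and Wnt5a were lower in WT basal than in WT ML cells, with Wnt4 at 7.98 ± 6.12 against 112 ± 40.7 CPM (adjusted p = 2.51e-04) and Wnt5a at 44.95 ± 25.4 against 221 ± 84.4 CPM (adjusted p = 0.00272). In WT LP cells Wnt4 averaged 10.2 ± 2.48 and Wnt5a 28.5 ± 19.5 CPM. Tcf7l2, a Wnt effector, was lower in WT basal than in WT LP cells, at 213 ± 57.4 against 407 ± 91.2 CPM (adjusted p = 0.0137).

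Of 18 genes around the protein C receptor, 14 were tested between the populations. In KO cells 7 were higher and 2 lower in basal than in LP cells (median log2 fold change 2.18), and 5 higher and 3 lower in basal than in ML cells (median 1.36), against medians of -0.01 and 0.02 and calls for 14.8% and 19.4% over all genes. In WT cells 6 were higher and 0 lower in WT basal than in WT LP cells (median 1.52). Against WT ML cells 4 were higher and 2 lower (median 0.75), and over all genes the medians were -0.03 and 0.01, with 15.8% and 24.6% called. Cav1, caveolin, averaged 180.0 ± 41.6 CPM in WT basal and 16.2 ± 5.604 CPM in WT LP cells (adjusted p = 1.52e-05). In WT ML cells Cav1 stood near the basal level, at 162.5 ± 103.6 CPM, so that it was low in LP cells only. Pros1, the protein S cofactor, averaged 114 ± 44.6 in WT basal, 16.3 ± 2.02 in WT LP and 9.32 ± 2.76 CPM in WT ML cells (adjusted p = 3.61e-05 and 3.64e-06). F2r, the thrombin receptor PAR1, averaged 56.8 ± 6.45 in WT basal and 4.09 ± 0.838 CPM in WT ML cells (adjusted p = 2.96e-06). F3, tissue factor, was lower in WT basal than in WT ML cells, at 20.8 ± 11.9 against 172 ± 138 CPM (adjusted p = 0.00171), and Proc, the ligand of the receptor, was at 0 in all 4 WT basal libraries and at 6.03 ± 4.59 CPM in WT ML cells (adjusted p = 0.00320). Tetraspanins were called in both directions. Of 24 genes, 21 were tested. In KO cells 2 were higher and 3 lower in basal than in LP cells, and 2 higher and 4 lower in basal than in ML cells (medians -0.19 and -1.08, with 14.8% and 19.4% of all genes called). In WT cells 3 were higher and 2 lower in WT basal than in WT LP cells, and 4 were higher and 6 lower in WT basal than in WT ML cells (medians -0.20 and -0.34, with 15.8% and 24.6% of all genes called). Tspan18 averaged 87.9 ± 41.3 in WT basal, 2.14 ± 1.35 in WT LP and 3.44 ± 1.17 CPM in WT ML cells (adjusted p = 5.12e-06 and 8.06e-06), while Cd82 was lower in WT basal than in WT LP cells (3.79 ± 3.93 against 16.4 ± 3.92 CPM, adjusted p = 0.0218) and Tspan13 lower than in WT ML cells (12.9 ± 5.75 against 129 ± 45.5 CPM, adjusted p = 7.29e-05). Tspan5 (26.2 ± 14.2 against 6.20 ± 1.70 CPM, adjusted p = 0.00607) was higher and Tspan33 (3.22 ± 2.62 against 14.9 ± 2.77 CPM, adjusted p = 0.0427) lower in WT basal than in WT LP cells. Against WT ML cells Tspan2 was higher in WT basal cells (60.5 ± 23.4 against 6.27 ± 4.75 CPM, adjusted p = 5.87e-04) and Cd9 lower (93.4 ± 6.80 against 355 ± 147 CPM, adjusted p = 4.12e-05).

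Among 13 family relatives, Lgr4, Bcl11a and 11 SOX genes, 10 were tested. In KO cells 2 were higher and 0 lower in basal than in LP cells, and 3 higher and 0 lower in basal than in ML cells (medians 0.41 and 1.40, with 14.8% and 19.4% of all genes called). In WT cells 2 were higher and 0 lower in basal than in LP cells, and 4 higher and 0 lower in basal than in ML cells (medians -0.22 and 1.38, with 15.8% and 24.6% of all genes called). Sox10 and Sox8 form the SOXE group with Sox9, which was lower in WT basal than in WT ML cells and did not pass against WT LP cells. Sox10 averaged 44.3 ± 23.3 in WT basal and 6.67 ± 2.99 CPM in WT ML cells (log2 fold change 2.78, SE 0.44, edgeR adjusted p = 2.53e-04). Its highest means were in LP cells, 79.89 ± 16.15 CPM in WT LP cells, and 68.48 ± 21.9 in KO LP against 30.83 ± 22.38 CPM in KO basal cells. Neither of these differences between basal and LP cells was called. Sox8 averaged 39.6 ± 42.1 in WT basal and 2.66 ± 4.55 CPM in WT LP cells (3.89, SE 1.26, adjusted p = 0.0470). Of 20 other genes associated with mammary stem cells, 17 were tested. The list includes Itgb1, the gene of CD29, by which basal cells were sorted. It also includes Krt5, Krt14 and Trp63, which are among the basal markers summed above. The basal direction of these genes is therefore not separate from the sort. In KO cells 10 were higher and 2 lower in basal than in LP cells (median 2.70), and 9 higher and 1 lower in basal than in ML cells (median 2.39), where 14.8% and 19.4% of all genes were called. In WT cells 9 were higher and 1 lower in basal than in LP cells (median 1.99), and 9 higher and 1 lower than in ML cells (median 2.01), where 15.8% and 24.6% of all genes were called. Dll1, a Notch ligand, averaged 103 ± 18.6 in WT basal, 2.44 ± 1.45 in WT LP and 1.01 ± 1.05 CPM in WT ML cells (adjusted p = 6.42e-06 and 1.45e-06). Krt14, a basal keratin, averaged 602 ± 199.7 CPM in WT basal and 3.67 ± 2.00 CPM in WT LP cells (adjusted p = 1.02e-05), and Igfbp5, an IGF-binding protein, 4007 ± 639.9 CPM in WT basal and 438 ± 138 CPM in WT ML cells (adjusted p = 1.71e-06). The means of Igfbp5 were higher in LP than in basal cells, at 6188 ± 1589 CPM in WT LP cells. In KO cells they were 8775 ± 2583 CPM in LP and 2066 ± 1196 CPM in basal cells. Bmi1, a Polycomb protein, was the 1 gene of the list called lower in both WT contrasts, at 5.75 ± 3.18 in WT basal, 21.8 ± 5.05 in WT LP and 34.8 ± 5.22 CPM in WT ML cells (adjusted p = 0.0128 and 0.00117). Between KO and WT 0 genes of these 5 lists passed in any population, and the median log2 fold changes of the lists in basal cells, in the order given here, were 0.31, 0.53, -0.11, 0.07 and 0.31, against 0.01 over all genes. The smallest unadjusted p of each list in basal cells belonged to Fzd2, Rps6ka1, Tspan2, Sox11 and Igfbp5 (unadjusted p = 0.00205 to 0.101, edgeR adjusted p = 0.998 each). Rps6ka1, a ribosomal S6 kinase, averaged 76.4 ± 36.2 CPM (KO) and 24.2 ± 3.87 CPM (WT) (unadjusted p = 0.00205, adjusted p = 0.998), and Igfbp5 averaged 2066 ± 1196 CPM (KO) and 4007 ± 639.9 CPM (WT) (unadjusted p = 0.0188, adjusted p = 0.998). In LP cells they were Wnt5a, Cav1, Tspan13, Lgr4 and Krt5 (unadjusted p = 0.00281 to 0.132, edgeR adjusted p = 0.999 each), and in ML cells Fzd3, Thbd, Tspan17, Sox10 and Cd1d1 (unadjusted p = 0.00714 to 0.168, edgeR adjusted p = 0.998 each).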

How the data were processed

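RNA was sequenced from 24 libraries of sorted mouse mammary cells, 4 for each genotype in each population. The deposited table gives expected counts, which are not normalized, and gene lengths, per the file header and the values. Tools named in the submitters' processing notes are cutadapt, STAR and RSEM, with mm10 as the build and without versions or roles. The sources used here do not state how the authors filtered the table. Expected counts were rounded before any test. Gene positions came from GENCODE on mm10, which held 23758 of the 24007 identifiers.

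Tests used edgeR 4.0.16 in R 4.3.3: its two-sided quasi-likelihood test after TMM scaling and filterByExpr, with robust dispersions and p-values adjusted by Benjamini-Hochberg over all tested genes (threshold 0.05). KO was compared with WT in the 8 libraries of a population, populations in the 12 libraries of a genotype, and the difference of KO effects in all 24 libraries. None of these main fits used a replicate block. Intervals (95%) use the quasi-likelihood degrees of freedom. Levels are CPM on 1 scaling of all libraries, per kilobase of deposited length where genes are compared. Members outside the filter had an exact permutation test on log2(CPM + 0.5) and, added after seeing the data, exact sign flips within pairs. No fold is given where both means were under 5 CPM. Likeness is the root mean square difference of centred group means. The calling step was tested on simulated data with large changes set in well-expressed genes, which does not cover genes with few counts or small changes.

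The 6 genes, the gene lists and the tests were chosen with earlier results of these data known. All 6 genes are named in every group. From each list the 2 genes with the smallest p in each direction among those that pass are named in the WT basal contrasts, and the gene with the smallest p in the KO contrasts. For each member the 3 most alike genes are named.

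Replicate numbers came from the sample titles, and the replicate tags of the KO ML samples differ from them. Deviations of libraries with the same number correlated above 0.1 in every pair for KO against WT in LP (0.113 to 0.344) and ML cells (0.113 to 0.326), so the numbers were taken to pair the samples there, and not in basal cells (0.0528 to 0.137) or between populations. In LP cells 3 of 4 pairs correlated best within their own number, against 4 of 4 in ML and in basal cells. The labels do not say what a shared number means, and the main fits leave the pairing unused. Alternatives were RLE size factors, no filter, a replicate block, limma 3.58.1 voom with sample weights, DESeq2 1.42.0, leaving out libraries, and fits within pairs of replicates.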

Additional observations from a re-analysis of the deposited data

Results flagged for a closer look

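Over 36 groups of 4 libraries, 1 for each of the 6 genes in each group, 2 held a library far from the other 3 by Dixon's criterion, and chance alone gives about 1 in 20 groups. Lgr6, the R-spondin receptor, was lowest in WT basal replicate 3, at 176 CPM, while the other WT basal libraries held 283 to 298 CPM. That library was still above every WT LP library. Bcl11b was highest in KO ML replicate 3, at 2.26 CPM, while the other KO ML libraries held at most 0.172 CPM. KO ML replicate 3 also had the highest Lgr5 of its group, 5.45 CPM, and WT ML replicate 3 had the highest Bcl11b and Lgr5 of WT ML cells, 1.78 and 4.14 CPM.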

How the results depend on the processing

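Counting each of 46 fold changes under each alternative gave 734 values with the same direction and side of the threshold, 71 that lost the threshold, 20 that passed it only then and 28 that changed sign, and all 36 group means moved by less than the SD without TMM scaling. Between KO and WT 0 members passed under any alternative. The number of all genes called there moved from 0 in basal cells to 30 with no filter, 1 with voom, 21 with DESeq2 and 13 in a fit of all 24 libraries. In LP cells it moved from 0 to 4 with DESeq2, 1 within replicates 3 and 4, and 0 to 1 without single libraries. In ML cells it moved from 1 to 0 with RLE, with the replicate block, within replicates 1 and 2 and without any single library, to 11 with DESeq2 and to 4 within replicates 3 and 4. For the differences of KO effects, 0 genes became 2 with no filter, 44 with DESeq2, 3 within replicates 3 and 4 and 0 to 13 without single libraries for basal minus LP. For basal minus ML they became 1 with voom, 42 with DESeq2 and 0 to 3 without single libraries, and 1 with DESeq2 for LP minus ML.

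KO over WT values that changed sign were all small or uncertain. In basal cells Lgr6 was -0.07 within replicates 1 and 2, -0.01 in the fit of all libraries and -0.14 to 0.12 without 1 or 2 libraries, Procr was -0.11 with voom and -0.11 without WT basal replicate 2 and KO basal replicate 3 (0.27 to 1.80 without single libraries), and Tspan8 was 0.44 with voom and -0.84 to 0.03 without single libraries. In LP cells Lgr6 was 0.04 with voom and 0.04 within replicates 3 and 4 (-0.18 to 0.19 without single libraries), Procr was -0.40 within replicates 3 and 4 (-0.08 to 1.27 without single libraries), and Tspan8 was -0.53 to 0.08 without single libraries. In ML cells Lgr6 was -0.01 with voom and -0.82 within replicates 3 and 4 (-0.34 to 0.67 without single libraries), and Tspan8 was 0.24 with voom (-0.56 to 0.00 without single libraries).

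Between populations, Procr in basal over LP cells was -0.42 within replicates 1 and 2 in KO cells and -0.41 to 1.07 without single libraries in WT cells. Members called in KO basal over LP cells went from 3 to 5 with voom and 1 within replicates 3 and 4, in KO basal over ML from 5 to 3 within replicates 3 and 4, and in KO LP over ML from 3 to 0 (replicates 1 and 2) or 1 (replicates 3 and 4). In WT basal over LP they went from 4 to 1 within replicates 1 and 2 and 2 to 4 without single libraries, and in WT basal over ML from 5 to 2 within replicates 1 and 2. Numbers of all genes called moved for KO basal over LP from 1883 to 3145 with DESeq2, 837 (replicates 1 and 2) and 749 (replicates 3 and 4), and for KO basal over ML from 2463 to 3707, 1246 and 1091 in the same order. For KO LP over ML they moved from 721 to 2158 with voom, 1208 with DESeq2, 17 (replicates 1 and 2) and 182 (replicates 3 and 4) in the smaller fits, and 382 to 1059 without single libraries. Within replicates 1 and 2 they came to 347 for WT basal over LP, 871 for WT basal over ML and 143 for WT LP over ML, where voom gave 3067. Fits within pairs of replicates have fewer libraries. Apart from the changes given beside the results, the replicate block changed no call of a member, and whether the numbers pair the libraries outside KO against WT in luminal cells is not known: in those contrasts 2 to 4 of 4 pairs correlated best within their own number. In basal cells all 4 did, and in the 4 same-numbered pairs KO was above WT 4 times for Lgr5 and Procr and below it 4 times for Tspan8, with block values of 0.74, 1.43 and -0.52 (edgeR adjusted p = 1.00 each). Likeness over 24 libraries kept 1 of 3 names for Lgr5, 1 for Lgr6 and 0 for Procr, 0 for Tspan8, 0 for Bcl11b and 0 for Sox9. Depth limits Lgr5 and Bcl11b in luminal cells, where no library had more than 29 and 12 counts of them.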
